A study of Mus musculus with 6 samples.

Results

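Translation initiation and elongation factors are the proteins that place the ribosome on an mRNA and then move it along the message. Their genes were chosen by name alone: every row of the table whose symbol begins with Eif or Eef followed by a digit. Of 67 such symbols, 3 were left out by the same rule, namely the X- and Y-linked genes of the eIF2 gamma subunit and the interferon-induced eIF2 kinase. This left 64 genes of the 17866 in the table. The rule uses no measured value, although it was set with earlier results of these data known.

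Initiation begins when the eIF2 complex brings the initiator tRNA to the small ribosomal subunit, where eIF1, eIF1A and eIF3 keep the subunit open for scanning. The mRNA is recruited through its cap by eIF4E, which sits with the helicase eIF4A on the scaffold eIF4G, and the 4E-BP proteins compete with the scaffold for eIF4E. Stress kinases phosphorylate eIF2 and thereby block its exchange factor eIF2B, which lowers general translation. During elongation eEF1A delivers aminoacyl-tRNA, the eEF1B complex recharges eEF1A, and eEF2 moves the ribosome forward until its own kinase, eEF2K, inactivates it. Most of these factors are needed in every dividing cell, and some of their mRNAs are very abundant, while a few copies of them are restricted to certain tissues.

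The samples were 6 bulk RNA-seq libraries of separated corneal epithelium from C57BL/6 mice aged 6 months, each from a different biological sample. The labels call 3 of them WT and 3 of them KO, with the genotype given as Rela-/-. In the study, the KO animals were Krt14-Cre; Rela f/f mice, in which a floxed Rela gene is deleted in cells that express or descended from cells expressing keratin 14. That Cre also acts in the limbus, conjunctiva, meibomian glands, skin and oral mucosa, and cells outside its reach keep Rela. RelA, also called p65, is a subunit of NF-κB that activates transcription. The comparison addressed here is how the mRNA levels of the translation factors differed between the genotypes.

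Each library held between 20158404 and 20880347 estimated counts. The WT libraries held 1871, 1844 and 1855 counts of Rela and the KO libraries 318, 223 and 313, a log2 fold change of -2.60 ± 0.14 (SE), so the labels matched the targeted gene. Of 9 markers of corneal and epithelial identity 7 were lower in KO, 1 was higher (Krt14) and 1 did not pass (Trp63), whereas all 5 epidermal markers were higher. The summed level of the corneal list was between 92579 and 96930 counts per 1000000 (CPM, scaled by TMM factors) in WT and between 31325 and 35701 in KO, and that of the epidermal list between 15.1 and 20.3 CPM in WT and between 11563 and 23959 in KO. Of 6 tested fibroblast and keratocyte markers 5 were higher and 1, Pdgfra, was lower. The list summed to between 13.4 and 16.9 CPM in WT and between 19.2 and 32.3 in KO. Most of the WT sum was Pdgfra, at 13.1 ± 2.4 CPM in WT and 1.21 ± 0.18 in KO. Vim was at 0.90 CPM in WT and 10.3 in KO, Thy1 at 0.11 and 7.27, and Dcn at 0.03 and 4.53. Col1a1 was at 0.54 and 2.12 and Col1a2 at 0.06 and 0.70. The keratocyte gene Lum was at 0 counts in all WT libraries. Leukocyte markers summed to between 271 and 347 CPM in WT and between 267 and 339 in KO, a sum carried by Itgam, which was lower at 175 ± 34 CPM in KO against 266 ± 38 in WT. The other leukocyte markers called were higher: Ptprc at 0.40 CPM in WT and 5.27 in KO, Lyz2 at 0.06 and 9.39, Csf1r at 0.59 and 7.58, and Cd74 at 7.99 and 64.3, while Cd68 did not pass. Endothelial markers summed to under 0.9 CPM in every library, and Pecam1, the only one tested, was higher. All 3 goblet cell markers were higher, with sums between 1.01 and 2.04 CPM in WT and between 7.22 and 29.4 in KO. The neuronal gene Tubb3 was at 0.125 CPM in WT and 24.8 in KO and the muscle gene Myh1 at 0 and 1.14, both higher, and 2 of 3 tested melanocyte markers were lower. Of 5 proliferation genes 4 were higher, with a summed level between 277 and 395 CPM in WT and between 554 and 675 in KO. In bulk tissue a change in the share of a cell type and a change in mRNA per cell cannot be told apart, and the part of these cell type and proliferation differences in the results for translation factors was not tested.

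Most translation factor mRNAs were higher in the KO epithelium. Of the 64 genes, 61 had enough counts to be tested. At an adjusted p of 0.05, 37 of these were higher in the KO libraries (edgeR's quasi-likelihood test, Benjamini-Hochberg adjustment over 13305 genes). Another 5 were lower and 19 did not pass. Over all genes tested, 31.8% were higher and 30.2% were lower by the same rule. The median log2 fold change was 0.44 over the tested factors and 0.01 over all genes tested. In 46 of the 61 factors the CPM ranges of the genotypes did not overlap, and 68.6% of all tested genes were apart in this way. Together the 64 genes took between 1.63% and 1.80% of all counts in the WT libraries and between 2.06% and 2.2% in the KO libraries, so these ranges did not overlap.

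**Figure D1:**
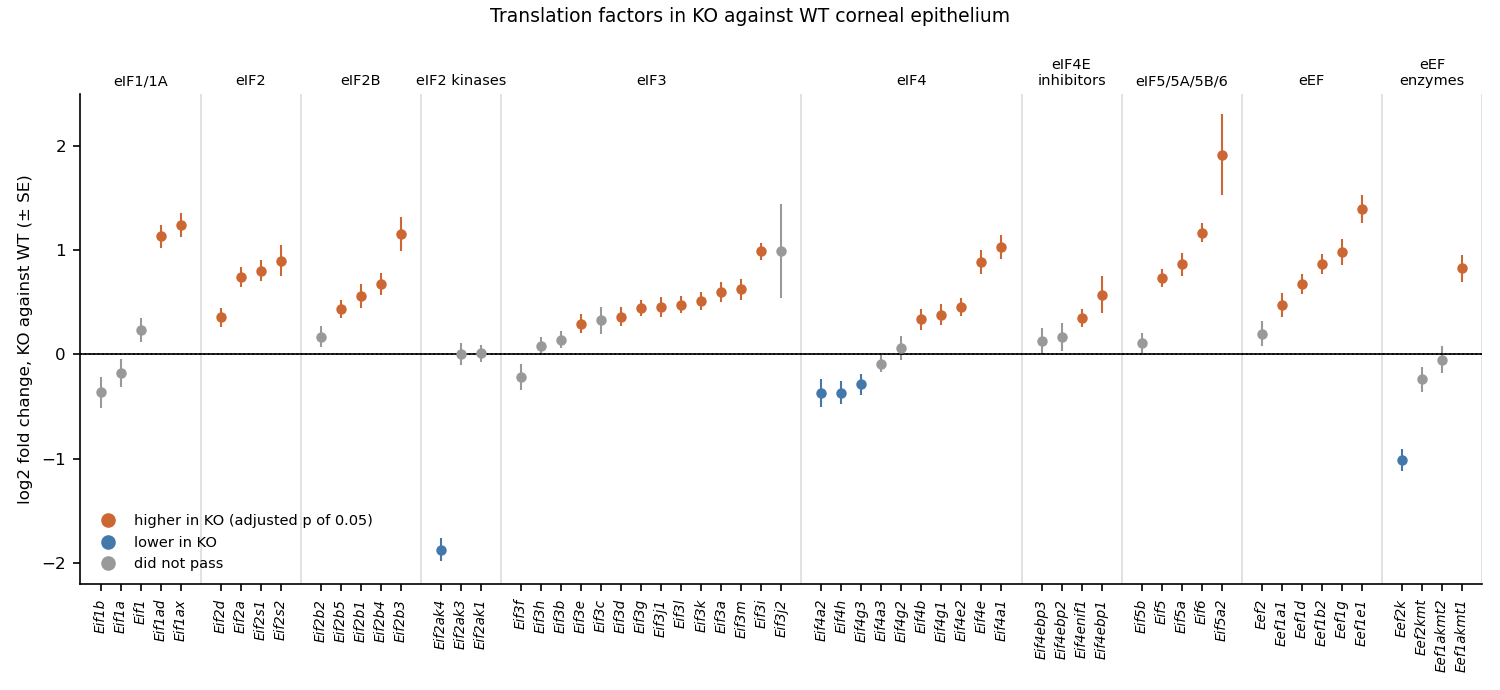
The log2 fold change of each tested factor (vertical axis, KO against WT, error bars of 1 SE) is grouped by role and ordered within a role. Orange points were higher in KO, blue points were lower and grey points did not pass; a dotted line marks the median of all genes, and Eif4e3, at 6.36, is off the scale and not drawn.

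In the table as a whole, shorter genes tended to have higher fold changes. Genes are not independent of each other, so as a description only, the rank correlation of log2 fold change with effective gene length was -0.21 over 13305 genes and -0.29 over the 61 factors. The median effective length was 1932 bases for the tested factors and 2854 for all genes tested. With a length curve fitted per library as an offset, 39 factors were higher and 7 lower, and the median log2 fold change of the factors was 0.36. This offset removed the calls of 6 factors (Eif3e, Eif3g, Eif3k, Eif4ebp1, Eif4a2 and Eif4g3). It added 10, with Eif3b, Eif3c, Eif4g2, Eif4ebp2, Eif5b and Eef2 called higher and Eif1b, Eif3f, Eif4a3 and Eef1akmt2 called lower.

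At the stricter threshold used in the study, an adjusted p of 0.001 or less and a fold change of at least 2, 9 factors remained. This threshold was passed by 19.8% of all genes, 11.6% in the higher and 8.24% in the lower direction. The 7 higher factors were Eif4e3, Eef1e1, Eif1ax, Eif6, Eif2b3, Eif1ad and Eif4a1, and the 2 lower ones were the kinase genes Eif2ak4 and Eef2k. Only 4 factors reached it under the length offset, namely Eif4e3, Eef1e1, Eif1ad and Eif2ak4. In that fit Eif1ax was at 0.80, Eif6 at 0.99, Eif4a1 at 0.95 and Eef2k at -0.90 on the log2 scale. Eif2b3 was at 1.01 but missed the limit on the adjusted p, at 0.00105.

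**Figure D2:**
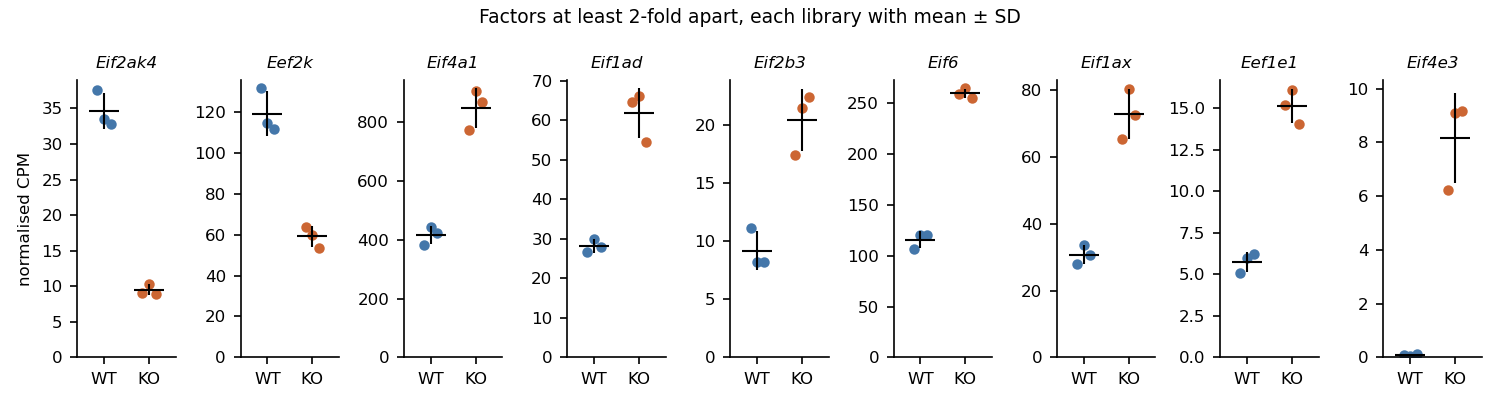
Normalised CPM of the 9 factors at the study threshold is drawn from 0 in each panel, with 1 point per library and the mean ± SD of 3 libraries. The genotypes do not overlap in any panel, with Eif2ak4 and Eef2k lower and the other 7 higher in KO.

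The initiation kinase Eif2ak4 fell the most of all tested factors. Eif2ak4 encodes GCN2, which senses uncharged tRNA during amino acid shortage and phosphorylates eIF2 alpha, and lies at GRCm38 chr2:118388581-118475234 on the plus strand. It had 37.6, 33.6 and 32.9 CPM in the WT libraries and 9.12, 10.4 and 8.97 CPM in the KO libraries, so that the KO mean was 27.4% of the WT mean. This was a log2 fold change of -1.87 ± 0.11 (SE) with an adjusted p of 4.77e-06, and it stayed between -1.96 and -1.51 in the 17 alternative fits, all of which called it lower. The related kinases did not pass the test. Eif2ak1, the heme-regulated kinase HRI, was at 45.6 ± 0.77 CPM (SD, n = 3) in WT and 45.9 ± 0.57 in KO. Eif2ak3, the endoplasmic reticulum kinase PERK, was at 27.8 ± 2.1 CPM in WT and 27.8 ± 2.3 in KO. Per length, Eif2ak4 made up 24.8%, 21.6% and 22.5% of the summed FPKM of these kinases in the WT libraries and 7.34%, 8.17% and 7.05% in the KO libraries. FPKM is the deposited level per kilobase of gene and read total. None of the 3 kinases was called higher.

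The mRNA of the kinase substrate, eIF2 alpha, moved the other way from Eif2ak4. All 4 members grouped as eIF2 subunits and related initiator tRNA factors were higher, beside 31.8% of all genes tested. The gamma subunit genes were left out by the rule. Eif2s1, the alpha subunit that carries the phosphorylation site, rose by 0.80 ± 0.10 on the log2 scale. Eif2s2, the beta subunit, rose by 0.90 ± 0.15, and the alternative tRNA factors Eif2a and Eif2d by 0.74 ± 0.09 and 0.35 ± 0.09. Eif2s1 had 56.1, 56.4 and 59.8 CPM in WT and 89.5, 112 and 99.5 CPM in KO, with a gap between the groups. As a ratio of FPKM within each library, Eif2ak4 to Eif2s1 was 0.409, 0.365 and 0.349 in WT and 0.064, 0.057 and 0.057 in KO. Since Eif2ak4 was already called lower and Eif2s1 higher, this ratio restates those changes. No test was made of ratios of this kind. With 3 against 3 libraries a two-sided exact permutation test cannot give a p below 0.1.

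The eIF2B complex, which reloads eIF2 with GTP, had 4 of 5 subunits higher, beside 31.8% higher over all genes. Eif2b3, the gamma subunit (chr4:117019399-117086852), had 11.2, 8.19 and 8.24 CPM in WT and 17.4, 21.5 and 22.4 CPM in KO. Its change was 1.15 ± 0.16 (adjusted p = 0.000413), and even the lowest KO library was above the highest WT library. The catalytic subunit Eif2b5, the most abundant of the complex at 26.8 ± 0.40 FPKM in WT, rose by 0.44 ± 0.08, while Eif2b1 and Eif2b4 rose by 0.56 and 0.67. Eif2b2 was at 25.6 ± 2.1 CPM in WT and 28.8 ± 1.5 in KO and did not pass (adjusted p = 0.175).

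Among the scanning factors, paralogs differed in their values. Eif1ax, the X-linked eIF1A gene (chrX:159372195-159443246), had 28.0, 33.7 and 30.7 CPM in WT and 65.5, 80.5 and 72.5 CPM in KO, a change of 1.24 ± 0.11 (adjusted p = 3.75e-05). Its autosomal copy Eif1a had 110, 120 and 131 CPM in WT and 86.4, 111 and 122 CPM in KO, and the groups overlapped (log2 fold change -0.18 ± 0.14, adjusted p = 0.287). The FPKM ratio of Eif1ax to Eif1a was 0.82 ± 0.08 (SD, n = 3) in WT and 2.22 ± 0.27 in KO, so Eif1a was the higher of the pair in every WT library and Eif1ax in every KO library. Estimated counts of Eif1a were not whole in any library, which means that RSEM shared some of its reads with other loci.

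Eif1ad, which encodes a protein with an eIF1A-like domain (chr19:5366813-5371511), rose from 28.2 ± 1.7 to 61.8 ± 6.3 CPM, a log2 fold change of 1.13 ± 0.11 (adjusted p = 4.60e-05). Reads of Eif1ad were partly shared with other loci in every library. Eif1, the start codon gatekeeper and the most abundant of this role at 188 ± 19 FPKM in WT, was at 206 ± 14 FPKM in KO and did not pass (adjusted p = 0.105). Its paralog Eif1b had 8.25, 9.07 and 8.24 CPM in WT and 6.89, 5.62 and 7.37 in KO, with no overlap, but missed the threshold (log2 fold change -0.36 ± 0.15, adjusted p = 0.0638). Eif1b was called lower under the length offset, with total counts as the only scaling and in both limma fits, where its log2 fold change was between -0.80 and -0.42.

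Beside 31.8% higher and 30.2% lower over all genes, eIF3, the large scaffold on the small subunit, had 9 of 14 genes higher and none lower. Of those called, Eif3i, a subunit with a WD-repeat fold, had the largest log2 fold change, rising from 79.3, 84.9 and 78.7 CPM in WT to 155, 170 and 157 CPM in KO (log2 fold change 0.99 ± 0.08, adjusted p = 2.53e-05). Eif3m and Eif3a, the latter the largest subunit, rose by 0.62 ± 0.10 and 0.60 ± 0.10. Under the length offset Eif3a, at 0.79, was above Eif3i, at 0.66. Eif3k, Eif3l, Eif3j1, Eif3g, Eif3d and Eif3e rose by between 0.30 and 0.51, but Eif3k, Eif3g and Eif3e were not called under the length offset (0.03, 0.09 and 0.13). Eif3e was also not called with total counts only, in both limma fits, or without WT replicate 1, KO replicate 2 or KO replicate 3.

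The eIF3 subunits that did not pass included the most abundant of them. Eif3h was at 218 ± 1.4 FPKM in WT and 215 ± 8.1 in KO. Eif3f had 249, 250 and 244 CPM in the WT libraries and 256, 191 and 192 CPM in the KO libraries, so KO replicate 1 stood with the WT libraries and the other KO libraries lay below. Without KO replicate 1 it was called lower at -0.37 (adjusted p = 0.00632), and with all libraries it was -0.22 ± 0.13 (adjusted p = 0.169). Total counts only, the length offset and both limma fits also called it lower. Eif3b was at 239 ± 6.7 CPM in WT and 264 ± 6.9 in KO (adjusted p = 0.171). Eif3c missed the threshold at 0.33 ± 0.13 (adjusted p = 0.0549) and was called higher in 7 of the 17 alternatives, among them DESeq2 (adjusted p = 0.0217), the length offset (adjusted p = 0.0204) and the fits without KO replicate 1 or WT replicate 2. WT replicate 2 had 339 CPM against 264 and 262 in the other WT libraries. Eif3j2, a copy of Eif3j1, was counted 11, 44 and 41 times in WT and 48, 76 and 54 times in KO, all of them partly shared with other loci. Leaving Eif3j2 aside, the most abundant subunit exceeded the least abundant, Eif3j1, by 9.26-, 9.55- and 9.17-fold in FPKM in the WT libraries, so the mRNAs were not equimolar although the proteins form a single complex.

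**Figure D3:**
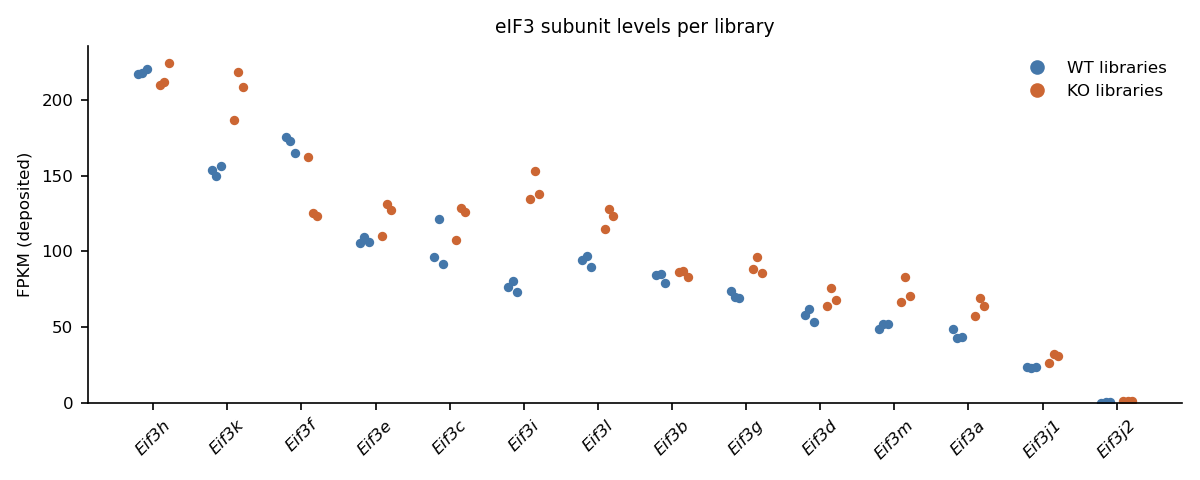
Deposited FPKM (linear axis from 0) of the 14 eIF3 genes is shown for the 3 WT and 3 KO libraries, ordered by level. The KO points lie above the WT points for Eif3k, Eif3i and Eif3l, while those of Eif3h and Eif3b mix with the WT points and those of Eif3f lie below them on this scale.

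The cap-binding and helicase group, eIF4, held genes called in both directions. Of 11 tested genes 6 were higher, 3 were lower and 2 did not pass, beside 31.8% higher and 30.2% lower over all genes. The helicase Eif4a1 (chr11:69666936-69672423, minus strand) had 382, 443 and 424 CPM in WT and 775, 906 and 870 CPM in KO, a log2 fold change of 1.03 ± 0.11 (adjusted p = 9.40e-05). Its paralog Eif4a2 had 238, 199 and 224 CPM in WT and 148, 204 and 160 in KO. Eif4a2 was called lower at -0.37 ± 0.14 (adjusted p = 0.0428), but KO replicate 2 lay above WT replicate 2, and 7 of the 17 alternatives did not call it. These included the fits without WT replicate 1 or 3 or KO replicate 1 or 3 (adjusted p between 0.111 and 0.144), with the length offset (adjusted p = 0.0784), and with a mean count of at least 50 (adjusted p = 0.0607). The FPKM ratio of Eif4a2 to Eif4a1 was 0.472, 0.334 and 0.386 in WT and 0.137, 0.158 and 0.132 in KO, and these did not overlap. Part of the Eif4a2 counts was shared with other loci, whereas all Eif4a1 counts were whole. The third member, Eif4a3, is the helicase of the exon junction complex rather than of initiation, and was at 82.6 ± 4.9 CPM in WT and 77.8 ± 3.2 in KO (adjusted p = 0.401).

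The cap-binding protein gene Eif4e rose from 44.7, 46.3 and 45.2 CPM to 69.7, 89.5 and 92.2 CPM (log2 fold change 0.88 ± 0.12, adjusted p = 0.000280). Eif4e2, whose product 4EHP binds the cap without recruiting the scaffold, rose by 0.46 ± 0.08, and the FPKM ratio of Eif4e2 to Eif4e overlapped between the genotypes (1.14 ± 0.06 and 0.98 ± 0.15). Eif4e3, a further cap-binding paralog (chr6:99527748-99693790, minus strand), was close to absent from the WT libraries at 2, 1 and 3 counts, against 123, 181 and 184 counts in the KO libraries. Against a floor of 3 counts per library this was at least 54.2-fold higher (adjusted p = 3.17e-06 in the fit, called in all 17 alternatives). Even so, Eif4e3 reached only 0.068, 0.077 and 0.075 of the FPKM of Eif4e in the KO libraries. Eif4e1b, which is known from oocytes, had between 5 and 13 counts in every library and was not tested.

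The scaffold genes went in different directions too. Eif4g1 rose from 419, 402 and 396 CPM to 572, 490 and 523 CPM (log2 fold change 0.38 ± 0.10, adjusted p = 0.00977). Eif4g3, its paralog, had 123, 124 and 123 CPM in WT and 115, 91.1 and 97.1 in KO and was called lower (-0.28 ± 0.10, adjusted p = 0.0378). That call was lost under the length offset (-0.07, adjusted p = 0.531), with a mean count of at least 50, and without any of the WT libraries, KO replicate 2 or KO replicate 3. The FPKM ratio of Eif4g3 to Eif4g1 was nevertheless 0.28 ± 0.01 in WT and 0.18 ± 0.01 in KO with no overlap. Eif4g2, or DAP5, which lacks the eIF4E-binding region, was the most counted of the family, at 1342 ± 122 CPM in WT and 1401 ± 60 in KO, and did not pass (adjusted p = 0.662). The helicase cofactors split as well: Eif4b rose by 0.34 ± 0.10 (adjusted p = 0.0185), a call lost with total counts only and without WT replicate 1 or 3. Eif4h fell by 0.37 ± 0.11 on the log2 scale, from 256, 271 and 257 CPM to 227, 179 and 202 CPM (adjusted p = 0.0171), and lost its call only without WT replicate 2 (adjusted p = 0.0572).

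Of the 4 repressors and transporters of eIF4E 2 were called higher, beside 31.8% higher over all genes. Those 2 had log2 fold changes below that of Eif4e, a difference that was not tested. Eif4ebp1 had 42.0, 68.5 and 46.9 CPM in WT and 69.6, 80.6 and 83.8 CPM in KO, where WT replicate 2 came within about 1 CPM of the lowest KO library. It was called higher at 0.57 ± 0.18 (adjusted p = 0.0213), but not under the length offset (0.16, adjusted p = 0.441) nor without WT replicate 1 or 3 or KO replicate 2 or 3. Eif4ebp2 and Eif4ebp3 overlapped between the genotypes, at 0.17 ± 0.13 and 0.13 ± 0.12. The summed FPKM of these 3 genes over that of Eif4e was 3.77, 4.59 and 3.90 in WT and 3.43, 2.7 and 2.7 in KO, which did not overlap. Eif4enif1, which encodes the eIF4E transporter, rose by 0.35 ± 0.09 (adjusted p = 0.00767).

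**Figure D4:**
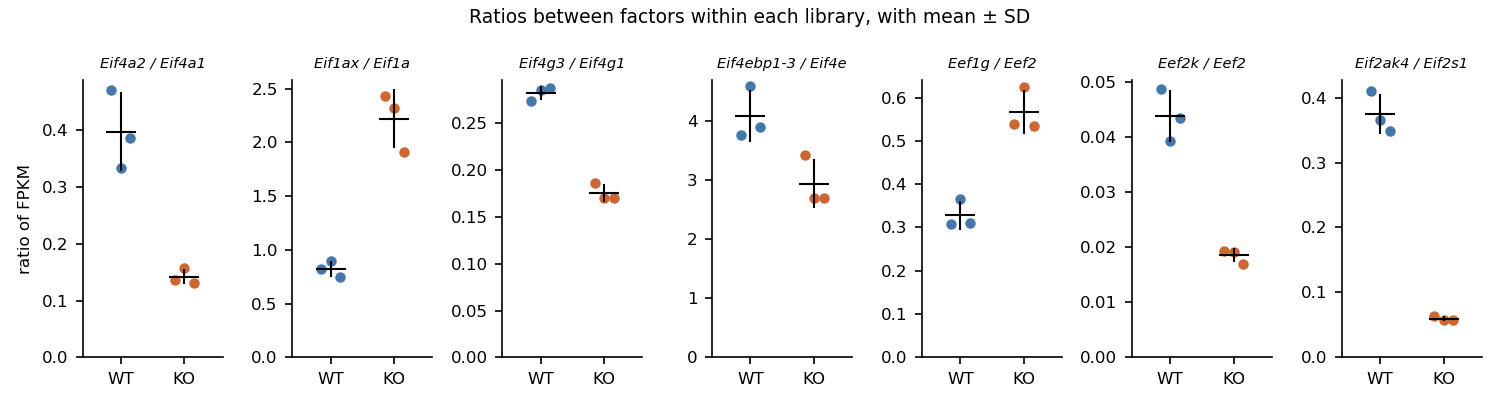
Ratios of deposited FPKM between factors are drawn for each library, with the mean ± SD of 3 libraries and axes that start at 0. In 1 panel the summed FPKM of Eif4ebp1, Eif4ebp2 and Eif4ebp3 is set over Eif4e. The 7 panels are a choice among the ratios computed, and in each the 3 KO values lie on one side of the 3 WT values. Each drawn ratio holds at least 1 gene called on its own, so its gap between the genotypes is no separate evidence. Other ratios, such as Eif4e2 to Eif4e and Eif4ebp2 to Eif4ebp1, overlapped and are not drawn. No test was made.

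Of the late initiation factors, 4 of 5 were higher, beside 31.8% over all genes. Eif6, which keeps the large ribosomal subunit from joining too early and takes part in its assembly (chr2:155817745-155828880), had 106, 120 and 120 CPM in WT and 259, 265 and 255 CPM in KO, a log2 fold change of 1.17 ± 0.09 (adjusted p = 1.71e-05). Eif5a, the hypusine-bearing factor that helps ribosomes past slow peptide bonds, had 415, 508 and 438 CPM in WT and 823, 830 and 822 in KO (0.86 ± 0.11, adjusted p = 0.000224). Its counts were partly shared with other loci in all libraries, and its log2 fold change was 0.59 under the length offset. Eif5, which makes eIF2 hydrolyse GTP at the start codon, rose by 0.73 ± 0.09. Eif5b, which joins the subunits, was at 154 ± 8.6 CPM in WT and 166 ± 15 in KO (adjusted p = 0.362). Eif5a2, the second hypusine factor, was counted only 5, 11 and 8 times in the WT libraries, against 23, 38 and 24 times in the KO libraries. Although it was called higher at 1.92 ± 0.39 (adjusted p = 0.00277), it was not called by limma on FPKM (adjusted p = 0.0952 with a pseudocount of 1), and its FPKM values overlapped, at 0.15, 0.28 and 0.14 in WT and 0.44, 0.37 and 0.23 in KO.

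The 2 most abundant factors per length were the elongation factors Eef1a1 and Eef2. Eef1a1, which carries aminoacyl-tRNA to the ribosome, was at 3455 ± 188 FPKM in WT and 4486 ± 283 in KO. In CPM it rose from 5769, 6318 and 5814 to 7823, 8479 and 8588 (log2 fold change 0.48 ± 0.12, adjusted p = 0.00745). Reads of Eef1a1 were partly shared with other loci. The tissue-restricted copy Eef1a2 had at most 3 counts in any library and was not tested. All 3 genes of the exchange complex were higher, beside 31.8% of all genes tested: Eef1g by 0.98 ± 0.12, Eef1b2 by 0.86 ± 0.10 and Eef1d by 0.68 ± 0.10. Under the length offset Eef1g was at 0.82, Eef1b2 at 0.79 and Eef1d at 0.30. Eef1g had 378, 457 and 354 CPM in WT and 814, 792 and 740 in KO.

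Eef2, the translocase, was not called higher. It was at 2467, 2506 and 2282 CPM in WT and 3024, 2545 and 2770 in KO, which did not overlap, yet missed the threshold (0.20 ± 0.12, adjusted p = 0.167), and of the 17 alternatives only the length offset called it (0.30, adjusted p = 0.0461). The FPKM ratio of Eef1g to Eef2 was 0.307, 0.365 and 0.311 in WT and 0.540, 0.624 and 0.535 in KO. Eef1e1, whose product AIMP3 belongs to the multi-synthetase complex and shares a fold with the exchange factors (chr13:38645691-38659028, minus strand), had 5.08, 5.95 and 6.25 CPM in WT and 15.2, 16.1 and 14.1 in KO. Its log2 fold change was 1.39 ± 0.13 (adjusted p = 4.98e-05), the second largest rise at the study threshold.

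The enzymes that modify elongation factors gave the second strong fall. Eef2k, the kinase that inactivates eEF2 (chr7:120842829-120907219, plus strand), had 132, 114 and 112 CPM in WT and 63.9, 59.8 and 53.5 CPM in KO, a KO mean of 49.6% of the WT mean. This was a log2 fold change of -1.01 ± 0.11 with an adjusted p of 7.54e-05, between -1.14 and -0.90 in the 17 alternatives, all of which called it lower. Estimated counts of Eef2k were not whole in any library, so some of its reads were shared with other loci. The FPKM ratio of Eef2k to Eef2 was 0.049, 0.039 and 0.043 in WT and 0.019, 0.019 and 0.017 in KO. Eef1akmt1, a lysine methyltransferase of eEF1A, rose by 0.82 ± 0.13 (adjusted p = 0.000610), from 7.51 ± 0.37 to 13.3 ± 1.2 CPM. Under the length offset it was at 0.33 (adjusted p = 0.0428). Eef1akmt2 and the eEF2 methyltransferase Eef2kmt did not pass, at -0.05 ± 0.13 and -0.24 ± 0.12. Eef1akmt3 was counted 0, 0 and 1 times in WT and 15, 7 and 8 times in KO, at least 3.35-fold higher against the floor of 3 counts, and was too low to be tested.

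Because Rela encodes a transcription factor, the letters of the promoters were searched. RefSeq promoter windows on GRCm38.p6, from 250 bases before to 50 bases after a start, were matched by gene identifier for 47 of the 61 tested factors and for 10572 tested genes in all, and a gene was counted when any of its windows held the motif on either strand. The κB consensus, a 10-letter motif with degenerate positions, was held by 3 factors, or 6.38%, and by 6.22% of the genes. The first lines below show those 3 factors, because 2 of them, Eef2k and Eif2ak4, are the ones that fell most and Eef1a1 is the most abundant. The E-box CACGTG was held by 12 factors (25.5%) and by 11.4% of the genes, and the ETS motif CCGGAAGT by 9 factors (19.1%) and by 8.80% of the genes. Of the 12 with an E-box 7 were higher and 2, Eef2k and Eif4h, were lower. Of the 9 with an ETS motif 7 were higher and none was lower. Of all 61 tested factors 37 were higher and 5 lower, and a link between a motif and a change was not tested. Stretches of Eif4a1, Eif4e and Eif5a are shown for the E-box, as 3 factors that rose by over 0.8 on the log2 scale. Eif5a2, with few counts, also rose by over 0.8 and held an E-box, but is not shown. The E-boxes of the lower factors Eef2k and Eif4h are not shown either, so the choice is one-sided. Eef1b2 and Eif2b4 are shown for an ETS motif that lies at the start itself. Each stretch reads 5′ to 3′ on the strand of the gene, and capitals mark the motif.
Eef2k, κB match, chr7:120850943-120851002, plus strand: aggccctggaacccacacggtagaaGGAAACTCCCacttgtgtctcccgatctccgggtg
Eif2ak4, κB match, chr2:118388367-118388420, plus strand: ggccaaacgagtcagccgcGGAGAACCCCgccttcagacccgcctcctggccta
Eef1a1, κB match, chr9:78481932-78481974, minus strand: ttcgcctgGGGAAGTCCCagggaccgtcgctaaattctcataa
Eif4a1, E-box, chr11:69672582-69672637, minus strand: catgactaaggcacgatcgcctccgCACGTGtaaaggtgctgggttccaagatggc
Eif4e, first E-box, chr3:138527018-138527070, plus strand: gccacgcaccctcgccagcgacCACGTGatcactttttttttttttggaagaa
Eif4e, second E-box, chr3:138527179-138527234, plus strand: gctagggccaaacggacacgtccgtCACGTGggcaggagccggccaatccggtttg
Eif5a, E-box, chr11:69921430-69921485, minus strand: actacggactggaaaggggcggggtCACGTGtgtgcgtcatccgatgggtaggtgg
Eef1b2, ETS motif, chr1:63176807-63176855, plus strand: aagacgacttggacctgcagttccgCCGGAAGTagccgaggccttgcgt
Eif2b4, ETS motif, chr5:31193115-31193163, minus strand: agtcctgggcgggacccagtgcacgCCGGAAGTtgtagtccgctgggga

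The κB matches lie on the strand opposite to the gene and begin 221, 231 and 242 bases before a start of Eef2k, Eif2ak4 and Eef1a1. For Eef2k that start is an internal one, downstream of the first base of the gene as the table gives it. The starts beside the E-boxes of Eif4e and Eif5a are internal as well. Eif5a held a further E-box, 178 bases before a start, which is not shown. A match is a run of letters and not a measured binding site, and no binding data were used. The other motifs among the 12 searched were the cyclic AMP element CRE with the letters TGACGTCA, its shorter core of TGACGT, the amino acid response element CARE with TGATGNAA, the GC box with GGGCGG, the CCAAT box, the TATA box with TATAAA, and the consensus motifs of NRF1, YY1 and ISRE. The longer CRE contains the shorter one, so the same bases can count for both. Shares of factors and of all genes were 19.1% and 12.7% for the CRE core, 74.5% and 66.8% for the GC box, 34.0% and 42.8% for the CCAAT box and 8.51% and 9.28% for the TATA box. The remaining motifs were held by 1 or 2 factors each.

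Other genes of translation were counted in the same fit from lists by function. These counts stand beside 31.8% higher and 30.2% lower over all genes tested. Of 78 tested cytosolic ribosomal protein genes 76 were higher and none was lower, with a median log2 fold change of 0.78, which was 0.18 under the length offset. These genes are short, with a median effective length of 686 bases. Of 22 genes for cytosolic aminoacyl-tRNA synthetases and their partners, which charge tRNA, 16 were higher and none was lower (median 0.50). The arginyl and histidyl enzymes Rars and Hars rose by 1.57 ± 0.10 and 1.27 ± 0.09. WT replicate 2 stood above the other WT libraries for several of them, as for Aars with 76.6, 146 and 74.3 CPM in WT against 91.8, 104 and 107 in KO, which did not pass.

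Among 14 genes for poly(A) binding, termination and recycling 7 were higher and 1 was lower, beside 31.8% higher and 30.2% lower over all genes. The release factor genes Etf1 and Gspt1 rose by 0.46 ± 0.08 and 0.45 ± 0.09, and the recycling ATPase Abce1 by 0.70 ± 0.13. The gene that fell was Gspt2, a paralog of Gspt1, with 2.15, 2.28 and 2.27 CPM in WT and 0.10, 0.20 and 0.20 in KO (log2 fold change -3.69 ± 0.33, adjusted p = 3.8e-05). Its 2, 4 and 4 counts in KO lay near the floor of 3 counts, so the size of the fall is uncertain. The alternative fits gave between -3.84 and -0.85. Of 9 mitochondrial translation factors 2 were higher and none was lower, beside 31.8% higher and 30.2% lower over all genes. The 2 were Gfm1 at 0.88 ± 0.09 and Tufm at 0.55 ± 0.09.

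Genes for mTOR and MNK signalling, which control eIF4E and its repressors, had 6 of 14 lower, 2 higher and 6 that did not pass, beside 30.2% lower and 31.8% higher over all genes. Their median log2 fold change was -0.25, and -0.16 under the length offset. Mknk2, which phosphorylates eIF4E, fell by 0.99 ± 0.11 on the log2 scale, from 779, 719 and 684 CPM to 400, 325 and 371 CPM. Mtor, its activator Rheb, the mTORC1 inhibitors Tsc1 and Tsc2, and Pdcd4, an inhibitor of eIF4A, were lower by between 0.40 and 0.69 on that scale, with Rheb not called in 1 and Pdcd4 in 3 of the 17 alternatives. Ddit4, an inhibitor of mTORC1, and Rps6kb2, a ribosomal S6 kinase, were higher at 1.5 ± 0.20 and 0.73 ± 0.12. Dohh, the enzyme that completes hypusine on eIF5A, rose by 0.88 ± 0.09, while Dhps, which starts it, was at 0.22 ± 0.12 and did not pass.

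Around eIF2, Atf4, whose mRNA is translated when eIF2 is phosphorylated, rose by 0.98 ± 0.14, and Ppp1r15a, a phosphatase subunit for eIF2, by 0.73 ± 0.18. Gcn1l1, the ribosome-bound activator of GCN2, was lower at -0.38 ± 0.10 (adjusted p = 0.011), but was not called without WT replicate 1 or under the length offset (-0.13, adjusted p = 0.221). Ddit3, Ppp1r15b and Impact did not pass. Of 6 listed genes that were measured 2 were higher and 1 was lower, beside 31.8% higher and 30.2% lower over all genes. Translation of mRNAs that start with a terminal oligopyrimidine tract is controlled by mTOR. Of 10 mRNAs known to have this start, 6 were higher and none was lower (median 0.32), beside the same shares over all genes. All but Pabpc1 of these are among the factors described above. The 4 that did not pass were Eef2, Eif3f, Eif3h and Pabpc1.

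**Figure D5:**
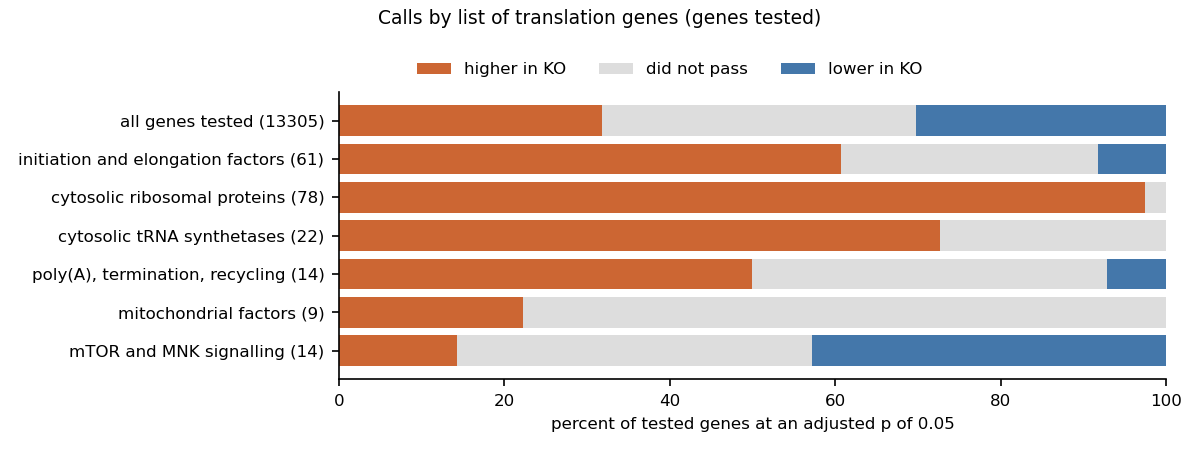
Each bar gives the percent of tested genes (horizontal axis) of a list that were higher in KO (orange), did not pass (grey) or were lower (blue) at an adjusted p of 0.05, with the number tested in brackets. The factors had 37 higher and 5 lower of 61, the ribosomal proteins 76 higher of 78, and mTOR and MNK signalling 6 lower of 14.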

How the data were processed

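RNA of separated corneal epithelium was sequenced in 3 WT and 3 KO libraries. Per the paper, libraries were depleted of rRNA and read single-end on a BGISEQ sequencer, although a TruSeq kit is named in the labels. The authors cleaned reads with SOAPnuke, mapped them with Bowtie2 2.2.5 and deposited estimated counts from RSEM 1.2.12, with FPKM and TPM, for 17866 genes. The labels list mm9, but the chromosome accessions of the table are those of GRCm38. The TPM values deposited by the authors were read only to check that they sum to 1000000 per library. The authors also deposited log2 fold changes, p-values and q-values of their own DESeq2 comparison and group means, which were not used. RSEM splits reads that fit several loci, and 22 of the 61 tested factors had counts that were not whole in some library. Only some of these are marked in the results. Whether counting used strand is not stated.

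Estimated counts were rounded and tested with edgeR 4.0.16 (R 4.3.3; TMM, filterByExpr, glmQLFit, glmQLFTest, and no term besides genotype). The Benjamini-Hochberg adjustment covered 13305 genes. An SE is the size of the log2 fold change over the root of F. TMM factors were 1.01 to 1.05 in WT and 0.952 to 0.990 in KO. A floor of 3 counts was 0.137 to 0.152 CPM, and such limits cover counting error only. Differences are given in CPM and levels between genes in FPKM. Effective length was that implied by counts and FPKM. As alternatives, the scaling was changed to RLE factors, to total counts alone or to TMM with the 20 highest genes left out, and the filter to none or to a mean count of at least 50. Others were DESeq2 1.42.0, robust dispersion, a loess length offset, limma 3.58.1 on log2(FPKM + 1) and log2(FPKM + 0.1), the replicate number as a block, and leaving out each library. The fits were tested on simulated data. Python 3.11.15 with pandas 2.3.3, numpy 2.4.6 and matplotlib 3.10.9 was used.

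The members, roles, lists and tests were chosen with earlier results of these data known. The rule for named genes took Rela, the most abundant member of each role and its largest rise and fall, all listed paralogs and all members at the study threshold. Further members and genes of the lists were named after their values were seen, and the promoter motifs and stretches were likewise chosen after their counts were seen. Rows of 1 repeated symbol, Plin2, were kept apart. Of 7 symbols listed for the eIF2 stress response 6 were in the table.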

Additional observations from a re-analysis of the deposited data

How the results depend on the processing

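Of the 37 factors called higher 31 were called higher in every alternative that tested them, as were 2 of the 5 called lower (Eif2ak4 and Eef2k). The number higher was between 35 and 39 in the fits with all libraries, and between 34 and 38 when a library was left out. The number lower was 8 with total counts only and in both limma fits, 3 with a mean count of at least 50 (59 members tested), and between 3 and 5 when a library was left out; it was 3 without any of the WT libraries or without KO replicate 3. The number at the study threshold was 4 under the length offset and between 7 and 12 when a library was left out, and between 6 and 10 in the other fits. Total counts as the only scaling moved the median of all genes by -0.09. Directions reversed for 7 factors that were not called. With total counts only, Eif2ak1 was at -0.0834, Eif2ak3 at -0.0911, Eif3h at -0.0149 and Eif4g2 at -0.0345. Under the length offset Eif1 was at -0.0269, Eif3h at -0.196 and Eif4ebp3 at -0.18. In the limma fits with a pseudocount of 1 and 0.1, Eif2ak1 was at -0.0774 and -0.0816, Eif2ak3 at -0.0799 and -0.0912, Eif3h at -0.0204 and -0.0205, and Eif4g2 at -0.0336 and -0.0338. With no filter Eif2ak1 was at -0.00777 and Eif2ak3 at -0.0159. When a library was left out, Eif2ak3 lay between -0.0685 (without KO replicate 3) and 0.0616 (without WT replicate 2), with -0.0481 without WT replicate 1, and Eef1akmt2 between -0.106 (without WT replicate 3) and 0.00278 (without WT replicate 1). The cause of these shifts was not tested. The replicate numbers count different animals, and same-numbered libraries did not deviate together (correlations 0.03, -0.01 and 0.06, with 1 of 6 libraries closest to its own number). With the replicate block 39 factors were higher, 4 lower and 8 at the study threshold. Under the block Eif4a2 lost its call (adjusted p = 0.0623), and Eif3c (adjusted p = 0.0301) and Eif3j2 (adjusted p = 0.0394) gained one. Low counts, as for Eif3j2, Eif5a2, Eif4e1b and Eef1akmt3, limit what can be said of those genes.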
